A study of Mus musculus with 2 samples.

Results

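The barcodes described here are 108 deeply sequenced mouse muscle stem cells (MuSCs) in which a heat-shock and immediate-early gene set scored above 5 other gene sets. They were drawn from the short-read gene table of the 90% aliquot, which lists 3001 barcodes. The 606 barcodes with at least 20000 unique molecular identifiers (UMIs, counted RNA molecules) were scored for 6 sets of 4 genes each, every gene as log2(CPM + 1) turned into a z-score over these barcodes, where CPM is the UMI count of a gene scaled to a fixed library total. The H set holds Hspa1a, Fosb, Smad7 and Atf3, and members are the barcodes whose highest mean was H. The 3 barcodes with a UMI of the leukocyte gene Ptprc were left out, 1 of which was highest in H. Members thus made up 108 of 603 scored barcodes, or 17.9% (exact 95% binomial interval 14.9 to 21.2%). Of the rest, 150 were highest in N (Nupr1, Neat1, Hmox1, Ndrg1), 139 in M (Ccnb1, Cdc20, Cdk1, Birc5), 72 in S (Mcm5, Mcm6, Pcna, Tyms), 72 in D (Myog, Mymk, Cdkn1c, Ak1) and 62 in I (Ifit1, Isg15, Iigp1, Ifi27l2a).

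The series profiled quiescent and activated MuSCs with short and long reads to resolve isoforms in single cells. The donors were Pax7creERT2R26-eYFPfl/fl mice on C57BL6 at 3 months of age, given tamoxifen for 5 days so that cells with Pax7-driven Cre became YFP positive, and YFP positive hindlimb cells were sorted. Quiescent cells came from uninjured muscle, and activated cells from muscle taken 72 h after injection of 40 uL of 1.2% barium chloride. Both kinds were run in 1 capture, which was divided into a 10% and a 90% aliquot, and the tables do not say from which muscle a barcode came. The members can therefore be named activated only by their genes. All 108 held a UMI of Pax7, Myf5, Myod1 or Des. Myod1, a myogenic transcription factor, had a UMI in 99 of them, and Pax7, the transcription factor of satellite cells, in 22. In CPM of summed UMIs, Pax7, Myf5, Myod1 and Des stood at 6.36, 26.9, 172 and 335 in members. In the other scored barcodes they stood higher, at 8.08, 37.9, 222 and 424. Whether these genes separate activated from quiescent cells here was not tested. Myog, a differentiation factor and itself a gene of the D set, had a UMI in 14. With 1 capture there are no replicates, so no test was run. Intervals cover counting error only, and differences between members and other barcodes describe these cells. The whole profile of a barcode carries the genes that chose it, so a ratio between members and others is no independent support for the set.

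The heat shock response is driven by the transcription factor Hsf1, which on protein damage binds heat shock elements and induces chaperones such as Hsp70 (Hspa1a, Hspa1b) and Hsp27 (Hspb1, also called Hsp25 in mouse). Immediate-early genes such as Fos, Fosb, Jun and Atf3 are transcribed within minutes of a stimulus without new protein synthesis, and many encode transcription factors of the AP-1 and ATF families. Smad7 is an inhibitory Smad that dampens TGF-beta signalling. In muscle stem cells, stress and immediate-early transcripts are known to respond both to injury and to tissue dissociation.

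The promoters of 3 chaperones with high ratios in the members are printed here because they carry the letters of a heat shock element, and those of Fosb and Atf3 because they head the immediate-early side of the rule. Each is the 250 bases before the transcription start given by RefSeq (GRCm38.p6), read 5′ to 3′ on the strand of the gene. Capitals mark matches to GAANNTTC (a heat shock element), TGACGTCA (a cAMP response element) or TGACTCA (an AP-1 site), or to the CArG box, searched on both strands. No 2 of the matches printed overlap. The promoter of Smad7 is not shown.
Hspa1a, chr17:34972157-34972406, minus strand: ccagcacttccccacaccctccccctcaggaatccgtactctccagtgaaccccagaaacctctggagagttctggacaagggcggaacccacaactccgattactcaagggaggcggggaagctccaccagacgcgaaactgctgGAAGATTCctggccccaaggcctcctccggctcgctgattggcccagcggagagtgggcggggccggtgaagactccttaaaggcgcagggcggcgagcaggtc
Hspa1b, chr17:34959239-34959488, minus strand: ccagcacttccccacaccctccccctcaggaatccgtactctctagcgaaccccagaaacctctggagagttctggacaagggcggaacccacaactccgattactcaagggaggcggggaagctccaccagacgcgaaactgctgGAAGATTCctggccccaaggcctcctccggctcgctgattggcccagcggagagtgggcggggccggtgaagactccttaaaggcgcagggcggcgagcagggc
Hspb1, chr5:135887669-135887918, plus strand: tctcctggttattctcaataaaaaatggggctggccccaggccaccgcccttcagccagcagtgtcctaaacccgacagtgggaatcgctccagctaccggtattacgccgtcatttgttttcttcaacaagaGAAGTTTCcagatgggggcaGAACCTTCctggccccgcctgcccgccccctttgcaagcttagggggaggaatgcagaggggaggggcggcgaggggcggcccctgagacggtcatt
Fosb, chr7:19310046-19310295, minus strand: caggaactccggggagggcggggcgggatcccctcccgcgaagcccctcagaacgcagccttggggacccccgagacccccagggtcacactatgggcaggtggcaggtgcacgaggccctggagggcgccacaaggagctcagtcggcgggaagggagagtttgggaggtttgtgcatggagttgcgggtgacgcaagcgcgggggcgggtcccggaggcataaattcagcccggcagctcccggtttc
Atf3, chr1:191183334-191183583, minus strand: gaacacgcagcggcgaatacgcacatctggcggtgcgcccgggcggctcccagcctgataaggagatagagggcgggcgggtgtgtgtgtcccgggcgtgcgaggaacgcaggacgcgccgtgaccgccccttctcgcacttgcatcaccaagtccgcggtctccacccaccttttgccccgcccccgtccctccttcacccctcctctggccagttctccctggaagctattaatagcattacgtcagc

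GAANNTTC occurred once before Hspa1a and once before Hspa1b, starting 104 bases before the start site in each. It occurred at 117 and 97 bases before Hspb1. The Hspa1a and Hspa1b windows were identical at 247 of 250 positions (98.8%), and reads of this pair can be split by the counting, so their separate levels are uncertain. Before Fosb and Atf3 none of the motifs was found in this window. Of 32851 promoter windows of this length, 6.69% held GAANNTTC, 1.55% held TGACGTCA, 4.46% held TGACTCA and 1.47% held a CArG box. Among the 5 chaperone genes that were higher in the members (described below by name), 2 held GAANNTTC, and among the 14 other chaperone genes with a window, 3 did. Of the immediate-early factors described below, 1 of 9 that were higher in members (Jun) and 2 of 13 others with a window (Fosl2 and Ier5l) held GAANNTTC. Jun held GAANNTTC 128 bases before its start, Bag3 held an AP-1 site at 20 bases and the phosphatase gene Dusp1 held a cAMP response element at 143 bases. These are matches of letters and say nothing of binding.

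Some cells were in both tables, which bears on every count. Of the barcode sequences, 634 were listed in both aliquots, and 206 of the 603 scored barcodes were among them. Of the scored barcodes, 76 also had at least 20000 UMIs in the 10% table. For all 76, the profile in the 90% table was closest to that of the same barcode in the 10% table, with a median correlation across genes of 0.963, against 0.809 with the other barcodes. The 10% table is therefore treated as a second measurement of the same cells and not as an independent sample. The methods describe the aliquots as separate droplets, and the sources used here do not say why cells are in both tables or whether the same molecules were counted in each. Of the 108 members, 12 were among these 76 barcodes. Without the 76 barcodes, 96 of 527 were members (18.2%), and of the 82 genes called or in the rule, Zfp36l1, Rrm1, Col3a1 and Acta2 lost the 1.5-fold difference described below.

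Members were sequenced as deeply as the other barcodes. They held 21856 to 99843 UMIs (median 46166) and 3491 to 7500 genes (median 5128), against 20025 to 128997 UMIs (median 47587) and a median of 5396 genes in the other 495 barcodes. Ribosomal protein genes took 26.0% of the UMIs of members and 24.7% of those of the others, and mitochondrial genes 1.28% and 1.17%. None of the 603 scored barcodes was called a doublet by Scrublet, which called 3 of 2420 barcodes in all, too few to show that it worked here. Markers of other cell types were low. Of 12 immune markers, 4 were at 0 in the members (Ptprc, by the rule, and C1qa, C1qb and Cd52), and their summed level ranged from 0 to 92.9 CPM per member and from 0 to 329.7 CPM in the others, with a median of 0 in each. Of 6 endothelial markers, Cdh5, Kdr, Emcn and Cldn5 were at 0, and the sum ranged from 0 to 178 CPM in members and from 0 to 99.1 CPM in others. The 7 fibro-adipogenic markers in the table, of which Lum was at 0, summed to a median of 34.0 CPM (0 to 374 CPM) in members and 43.6 CPM (0 to 2190 CPM) in others. Mural and glial markers reached at most 523 CPM in a member and 3949 CPM in another barcode, and myofibre markers 617 and 13285 CPM, with medians of 0. Of the markers with enough UMIs to be tested, 2 of 3 fibro-adipogenic, 1 of 1 mural or glial and 3 of 3 myofibre genes were at least 1.5-fold lower in members, and no marker was higher. Without the 76 barcodes of both tables, the fibro-adipogenic gene Col3a1 (-0.48) and the mural gene Acta2 (-0.36) were under 1.5-fold, which left 1 of 3 and 0 of 1. A member cannot score highest in D, a set with differentiation genes, so the lower myofibre level is partly set by the rule. With each set taken against the rest, the myofibre median log2 ratio was 5.08 in D and -1.36 in members. It was -1.87 to -2.655 in S, I, M and N. The fibro-adipogenic median was highest in I (1.76), and the mural value in I (1.46) and D (1.115). The part of other cell types or of their RNA in the values below was not tested.

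The H score of members ranged from -0.28 to 1.89 with a median of 1.15, against a median of -0.33 in the others. The margin of H over the next set had a median of 0.45 and reached 1.88. The cut through the barcodes is not wide. The members nearest to it led by 0.01 and 0.02, the nearest non-members missed by 0.05 (highest in D) and 0.08 (highest in N), and 32 members and 32 other barcodes lay within 0.25 of it. A class cut from such a score is a range of cells. The UMI minimum had its next barcode below at 19707 UMIs. The next best set of members was N in 44, S in 29, M in 16, D in 13 and I in 6, so N came second most often, in 40.7% of members.

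**Figure D1:**
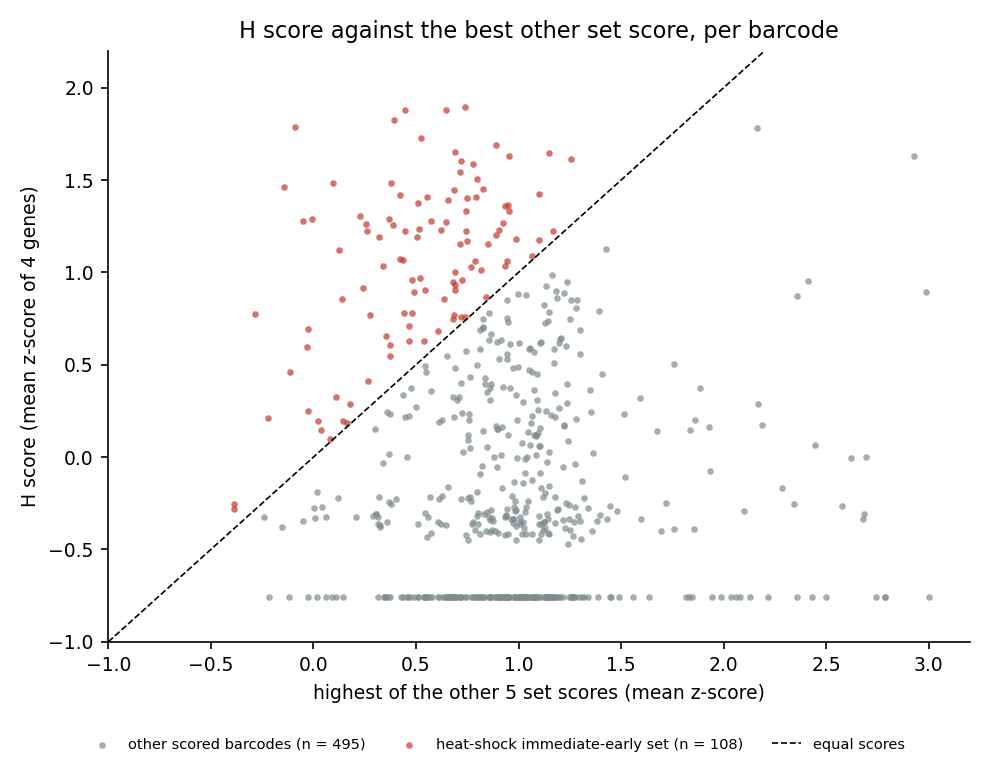
Each point is 1 of the 603 scored barcodes, with the highest of its other 5 set scores on the x axis and its H score on the y axis, both as mean z-scores. The 108 members (red) lie above the dashed line of equal scores by 0.01 to 1.88, and the row of grey points at the bottom holds the 177 barcodes without a UMI of any H gene.

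The 4 genes of the rule were high by construction, and their values describe how the members differ among themselves. All 4 had a UMI in 56 members, 3 in 39, 2 in 11 and 1 in 2, while 177 of the other 495 barcodes had none and 5 had all 4. Hspa1a, the stress-inducible Hsp70 (chromosome 17, 34969190 to 34972156, minus strand), ranged in members from 0 to 2341 CPM with a median of 90.6 CPM, and in others from 0 to 477 CPM with a median of 0. Summed over barcodes this was 209 CPM (95% counting interval 197 to 222) against 18.7 CPM (17.0 to 20.5). Fosb, an AP-1 subunit (chromosome 7, 19302696 to 19310051, minus strand), ranged from 0 to 249 CPM with a median of 48.2 CPM, and in others from 0 to 154 CPM with a median of 0. The groups overlapped for both genes, since 12 members had no UMI of each.

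Atf3, a stress-induced ATF/CREB family factor (chromosome 1, 191170296 to 191218039, minus strand, in Gencode, whose gene starts further upstream than the RefSeq start used for the window above), ranged from 0 to 1441 CPM with a median of 55.0 CPM in members and from 0 to 457 CPM with a median of 0 in others. Smad7 ranged from 0 to 207 CPM with a median of 28.4 CPM in members and from 0 to 199 CPM with a median of 0 in others. The highest Smad7 values of both groups were close, and the groups differed in how many barcodes had the gene at all. With each barcode thinned to 20000 UMIs, the share of members with a UMI was 75.9% for Hspa1a (88.9% unthinned), 62.0% for Fosb (88.9%), 64.8% for Atf3 (79.6%) and 51.9% for Smad7 (80.6%). Hspa1a, Fosb and Atf3 had their lowest shares in the M set, whose median depth was 49721 UMIs against 46166 in members. There the thinned shares of Hspa1a, Fosb, Atf3 and Smad7 were 15.8%, 5.76%, 7.91% and 13.7%. In the N set, Atf3 had a thinned share of 48.7%, well above that of the 3 other genes there (13.3 to 24.0%).

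The 4 genes varied largely apart from each other within the members. Ranked by z-score, Hspa1a led in 36 members, Fosb in 32, Smad7 in 24 and Atf3 in 16. Spearman's rank correlation over the 108 members was 0.41 between Hspa1a and Atf3, 0.20 between Fosb and Atf3, 0.05 between Hspa1a and Fosb and -0.11 between Hspa1a and Smad7. Over all 603 barcodes the 6 pairs gave 0.19 to 0.47. These points share 1 library, and choosing barcodes by the mean of the 4 genes lowers it among those chosen. The rank correlation between UMIs per barcode and each gene lay between -0.18 and 0.05 in the members.

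Some genes outside the rule differed in level between members with different leading genes. The leading gene comes from the rule, so these values are a description. In the 36 members led by Hspa1a, Hspb1 stood at 676 CPM and Hspa1b at 61.4 CPM, and in the 16 led by Atf3 they stood at 466 and 47.1 CPM. In the 24 led by Smad7 the same genes stood at 98.4 and 17.5 CPM, and in the 32 led by Fosb at 144 and 17.4 CPM. Jun was more even, at 375, 362, 202 and 312 CPM in members led by Hspa1a, Atf3, Smad7 and Fosb. Klf4 stood at 158, 258, 79.4 and 161 CPM in the same order. The Smad7-led members thus had the lowest levels of Jun, Klf4 and Hspb1 among the 4 kinds. Hspb1 and Hspa1b were highest in the Hspa1a-led and Atf3-led members. Within members, Hspa1a had a rank correlation of 0.67 with Hspb1, 0.56 with Hspa1b, 0.55 with the co-chaperone gene Dnajb1 and 0.37 with Jun.

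When 1 of the 4 genes was dropped from the rule, the gene left out was higher in the barcodes chosen by the other 3. The 4 genes correlate over all scored barcodes, as given above, so this direction and the overlaps are partly set by the rule. The values describe the rule and are no support for the set. Hspa1a stood at 158 CPM in the 108 barcodes chosen without it and at 29.5 CPM in the rest, a log2 ratio of 2.42. Fosb gave 2.19, Atf3 1.596 and Smad7 1.31 in the same way. Of the barcodes chosen without Hspa1a, 90 (83.3%) were among the 108 members, and for Fosb, Smad7 and Atf3 93 of 105, 93 of 120 and 97 of 107 were.

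**Figure D2:**
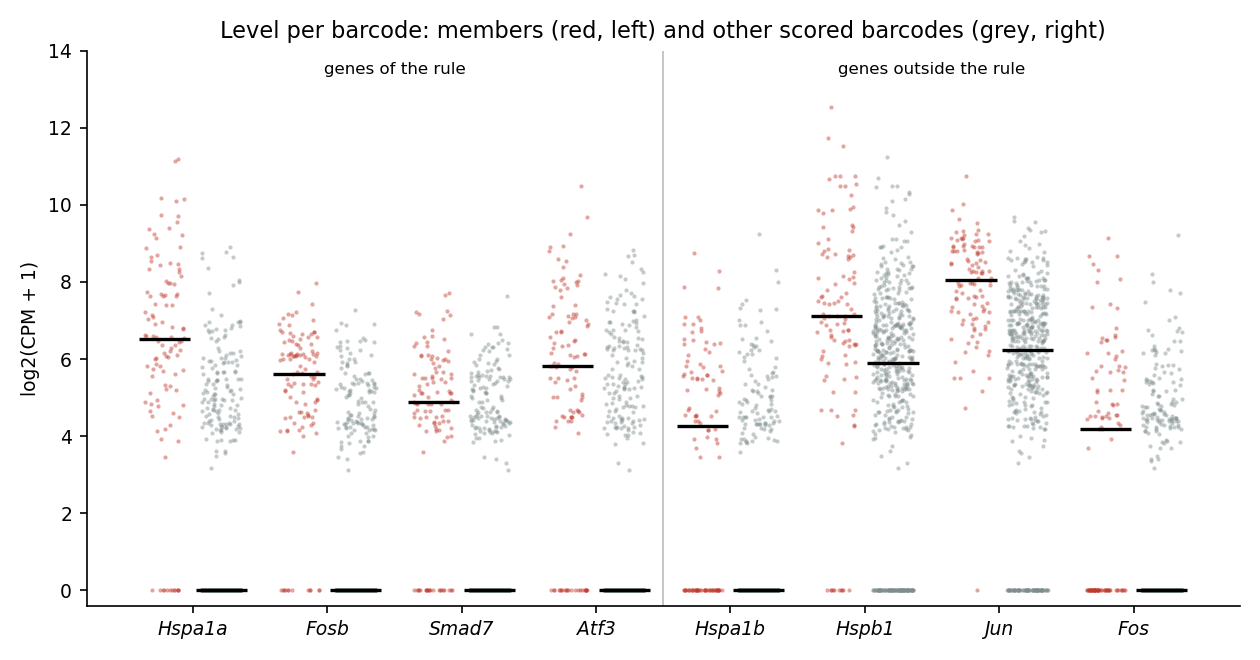
Level of 8 genes per barcode as log2(CPM + 1), with members in red on the left and other scored barcodes in grey on the right of each pair, and a black bar at the median. Left of the line are the genes of the rule, and right of it 4 genes outside it, of which Jun had a median of 266 CPM in members and 74.4 CPM in others, and Hspb1 138 and 58.4 CPM.

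Across all genes, members and others were alike for most of the transcriptome. Of 7716 genes with at least 200 UMIs over the compared barcodes, the 4 H genes left out, 86 (1.11%) were at least 1.5-fold higher in members and 839 (10.9%) at least 1.5-fold lower, by the ratio of CPM of summed UMIs. The median gene was 0.13 lower in members on the log2 scale. Relative to that median, 153 genes were higher and 530 lower. Counts of list members below are read against these shares and this shift.

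Of the heat shock chaperones, Hsp70 and Hsp27 genes stood highest in members and the most abundant chaperones were level. Of 24 genes tested, 5 (20.8%) were at least 1.5-fold higher, none was 1.5-fold lower, and the median log2 ratio was -0.03, against 1.11% higher and a median of -0.13 for all genes. Hspb1, a small heat shock protein (chromosome 5, 135887919 to 135889563, plus strand), ranged from 0 to 5911 CPM with a median of 138 CPM in members and from 0 to 2416 CPM with a median of 58.4 CPM in others. Its summed level was 365 CPM (349 to 382) against 116 CPM (111 to 120), a log2 ratio of 1.66 (95% interval 1.58 to 1.74). It was the second highest in the D set, at 216 CPM. Hsp25-ps1, an annotated pseudogene of Hspb1, stood at 175 and 54.4 CPM (log2 ratio 1.69), and its rank correlation with Hspb1 over members was 0.94, so reads of these genes may be shared and both levels are uncertain.

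Hspa1b, the Hsp70 copy next to Hspa1a, stood at 37.0 CPM (32.0 to 42.6) in members and 11.2 CPM (9.91 to 12.6) in others, a log2 ratio of 1.73 (1.45 to 1.995). It had a UMI in 64 members and 107 others, with highest values of 430 and 604 CPM, so the ranges overlapped fully. Dnajb1, the J-domain partner of Hsp70, had a log2 ratio of 0.89, which was 0.68 without the top barcode of each group, 1 member holding 2355 CPM. The co-chaperone Bag3 had 0.84. The fifth gene, Dnajb4, had 0.63, and 0.58 (under 1.5-fold) without the top barcodes. Hsph1, the Hsp110 exchange factor, had 0.57, just under the threshold with 77.1 against 52.0 CPM.

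The abundant chaperones had small ratios. The constitutive Hsp70 gene Hspa8 stood at 1074 and 1025 CPM (0.07), the constitutive Hsp90 gene Hsp90ab1 at 2324 and 2446 CPM (-0.07), Hspd1 of the mitochondrion had -0.05, the inducible Hsp90 gene Hsp90aa1 had -0.13, and the factor Hsf1 itself -0.08.

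Immediate-early transcription factors were the list with the most genes higher in members. Of 23 tested, 9 (39.1%) were at least 1.5-fold higher, 1 lower, and the median log2 ratio was 0.35. The highest was Csrnp1, a nuclear factor found as an Axin-induced gene, at 36.1 CPM (31.2 to 41.6) against 9.97 CPM (8.75 to 11.3), or 1.86 (1.58 to 2.13). Fos, the AP-1 partner of Jun, stood at 41.9 CPM in members and 12.6 CPM in others, or 1.74 (1.48 to 1.99), with a UMI in 57 members and 129 others. Ier3 stood at 32.9 and 9.97 CPM (1.72).

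Jun was the most widely detected of them. It ranged from 0 to 1718 CPM with a median of 266 CPM in members and from 0 to 824 CPM with a median of 74.4 CPM in others, and had a UMI in 107 of 108 members. Its log2 ratio was 1.499 (1.41 to 1.59). The Krüppel-like factors Klf4, Klf2 and Klf6 had 1.42, 1.39 and 1.04, Ier5, a regulator of Hsf1, had 1.31, and the small Maf gene Mafk had 0.95. Other immediate-early genes were under the threshold. Junb had 0.54, Jund 0.25, Ier2 0.14 and Egr1, a classical serum-induced gene, -0.12 (-0.53 to 0.26). Fosl1, the Fos family member that follows the first wave, was lower in members, at 49.8 against 82.7 CPM (-0.73).

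**Figure D3:**
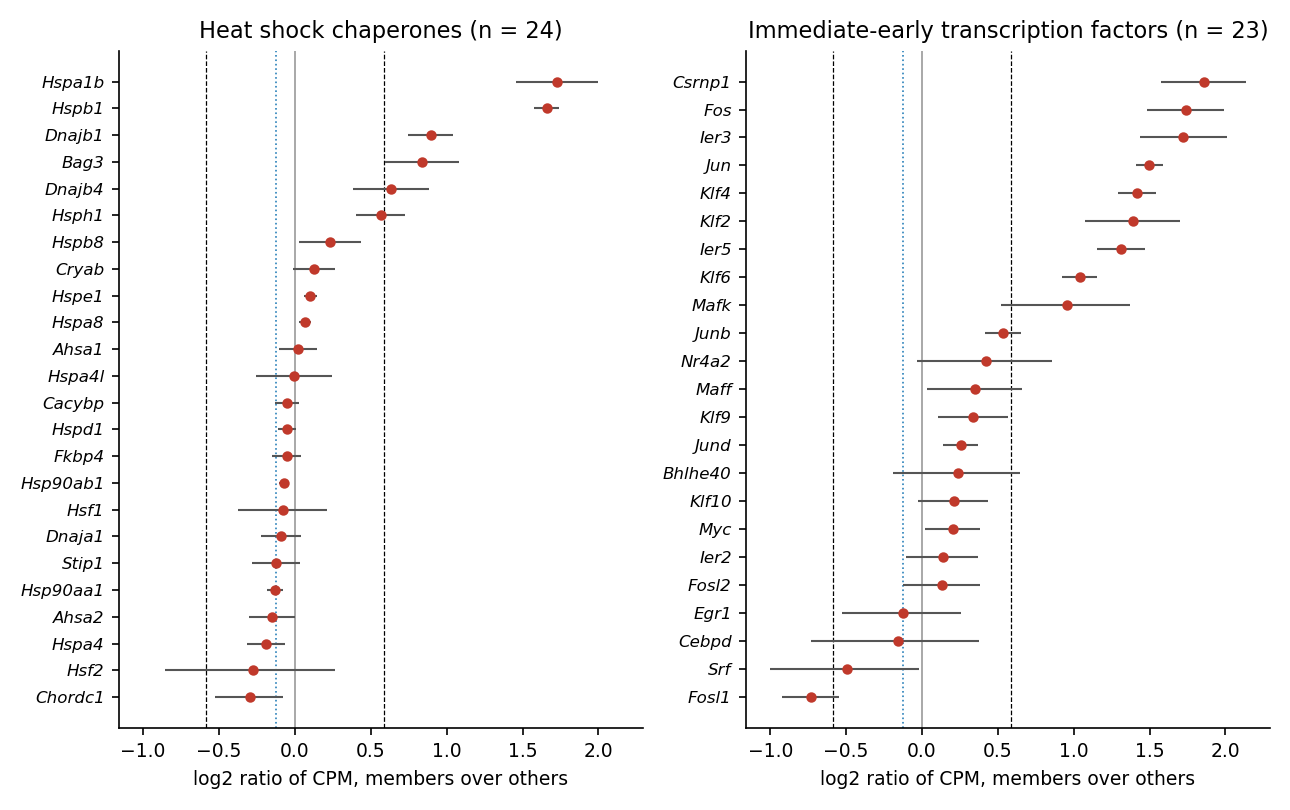
Log2 ratio of CPM of summed UMIs, members over the other scored barcodes, for the tested genes of both lists, with 95% counting intervals as bars. The solid line is 0, the dotted line the median of all 7716 genes (-0.13) and the dashed lines are at 1.5-fold. On the left 5 of 24 genes pass the upper dashed line, from Hspa1b (1.73) to Dnajb4 (0.63), and on the right 9 of 23 do, from Csrnp1 (1.86) to Mafk (0.95).

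Feedback genes of signalling, which restrain the kinases and transcripts of the immediate-early response, leaned the same way. Of 15 tested, 4 were at least 1.5-fold higher and none was lower, with a median of 0.39. Dusp1, the phosphatase that shuts off p38 and JNK, stood at 34.2 CPM (29.4 to 39.6) against 9.88 CPM (8.68 to 11.2), or 1.79, with a UMI in 53 members and 111 others and a highest value of 778 and 318 CPM. The kinase gene Sgk1 had 0.84, and the mRNA decay factors Zfp36l2 and Zfp36l1 had 0.79 and 0.65, the second falling to 0.57 without the 76 barcodes of both tables. Socs3, with under 200 UMIs and so not tested, had 63 UMIs in members and 119 in others (1.27).

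Genes of Smad and TGF-beta signalling, the pathway of Smad7, were level. Of 13 tested, none was 1.5-fold higher or lower, with a median of 0.01. Skil and Ski, Smad co-repressors, had 0.52 and -0.12. The Smad target Pmepa1 had 0.46. The BMP targets Id1, Id2 and Id3 had -0.52, -0.53 and -0.27, and without barcodes of at least 50 CPM Rn7sk, described below, Id1 had -0.19 and Id2 -0.20.

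Other stress lists were mixed. In the integrated stress response, 3 of 13 genes were higher and 1 lower, with a median of -0.0032. Ppp1r15a (Gadd34), which restores translation, stood at 93.1 against 41.5 CPM (1.16), the stress hormone Gdf15 at 19.8 against 7.71 CPM (1.36), and Sesn2 had 0.61, or 0.56 without the top barcodes. Chac1, a glutathione-degrading target of Atf4, was lower, at 7.29 against 19.7 CPM (-1.44), while Atf4 itself had 0.03 and Ddit3 0.15. In the unfolded protein response none of 13 passed in either direction, the median was -0.24, and the chaperone Hspa5 had -0.27. Of 16 p53 and growth arrest genes, 3 were higher and none lower, namely the death genes Bbc3 (0.98) and Pmaip1 (0.75) and the p53 ligase Mdm2 (0.73), while the cell cycle inhibitor Cdkn1a had 0.07. Of 16 ubiquitin and proteotoxic response genes, none was higher and 3 were lower, among them the Nrf2 target Srxn1 (-0.80).

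Secreted factors differed in direction. Of 10 tested, 3 were higher and 3 lower, with a median of -0.17. The EGF receptor ligands Areg and Hbegf stood at 36.8 against 16.3 CPM (1.17) and at 36.3 against 17.2 CPM (1.07), and Vegfa had 0.68, or 0.576 (under 1.5-fold) without barcodes of at least 50 CPM Rn7sk. The chemokines Ccl2, Ccl7 and Cxcl10 had -1.97, -2.56 and -1.39. Ccl2 had a UMI in 13 members and 96 others, with highest values of 264 and 3209 CPM.

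Cell cycle and muscle genes were mostly level or lower in members. Of 15 further S phase genes, none was higher and 4 were lower, with a median of -0.34. These were Fen1 (-0.76), Rrm2 (-0.68), Mcm7 (-0.59) and Rrm1 (-0.59), of which Rrm2, Mcm7 and Rrm1 were under 1.5-fold both relative to the median gene (-0.55, -0.47 and -0.46) and without barcodes of at least 50 CPM Rn7sk, and Rrm1 also without the 76 barcodes of both tables (-0.58). Of 15 mitotic genes, none was higher and 6 were lower, among them Aurka at -1.17 and Nusap1 at -1.42, with a median of -0.42. The S and M sets of the rule, which a member cannot score highest in, use genes of the same programmes, so this direction is partly set by the rule. Ccnb2 (-0.05) and Mcm4 (0.08) were level. Of 12 myogenic genes, 1 was lower, the adhesion molecule Vcam1 (-0.90), and the median was -0.34. Of 5 quiescence genes tested, 1 was lower, the growth arrest gene Gas1, at 20.2 against 45.9 CPM (-1.18), and the Notch target Hes1 had 0.43. Of 10 nuclear and mitochondrial RNAs none passed, and the nuclear RNA Malat1 stood at 2253 CPM in members and 2250 CPM in others.

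Outside the rule and the lists, the genes with the highest ratios included Nav2, Hsp25-ps1, Ttc21a, Gm38299, Pxdc1, Phlda1, Zfp367, Rgcc, Fxyd4, Ppp1r10, Map2k3os, Trib1 and 4632427E13Rik, with log2 ratios from 1.71 to 0.93. Map2k3os is annotated as an antisense transcript, and whether strand was used in counting is not given in the sources used here. Phlda1, an inducible pleckstrin-homology protein, was the most widely detected of them, at 194 CPM (182 to 206) against 83.5 CPM (79.9 to 87.2), or 1.21, with a UMI in 99 members. Nav2 led those named here, at 18.7 against 5.70 CPM, with a UMI in 43 members. Pxdc1 was about as high in the N set as in the members, at 32.1 and 32.5 CPM. Trib1 was at 45.0 CPM in N and 42.5 CPM in members, and Gm38299 at 14.8 CPM in D and 13.7 CPM in members.

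The 10 genes with the lowest ratios were Gm25212, Rpp38, Rn7sk, Gm24270, Gm23935, Lars2, Gm26315, Gm24447, Orai1 and Tbcc, from -2.34 to -1.81. Several of these are small RNAs. Gm25212, Rn7sk, Gm26315 and Gm24447 came from a minority of barcodes, while Gm24270 and Gm23935 had a UMI in 260 and 300 of the 495 others. All of these small RNAs stood higher in members than in N, with log2 ratios from 0.76 (Gm24447) to 1.97 (Rn7sk). Rn7sk, the 7SK RNA, had a UMI in 22 members and 157 others and stood at 16.3 against 76.8 CPM (-2.24). At least 50 CPM of it was seen in 9 members (8.33%) and 90 others (18.2%), and without these barcodes its ratio was -0.59. By set, 1.33% of N barcodes and 18.1 to 28.8% of S, M, D and I barcodes passed that level. Without those barcodes 69 genes were higher and 693 lower, and the part of this RNA in the ratios was not tested.

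The N set was the set most like the members in these genes. Against the rest of the scored barcodes, 14 of the 23 immediate-early factors were 1.5-fold higher in N, with a median of 0.71. For the members these were 9 and 0.35. Of all 7716 genes, 812 were 1.5-fold higher in N against the rest and 86 in members, so the background share is larger for N. The median over all genes was -0.03 in N and -0.13 in members. Both comparisons share barcodes, so the values stand side by side. Taken directly, members over N, 4 of 23 were higher and 5 lower. Fos stood at 41.9 CPM in members and 8.58 CPM in N (log2 ratio 2.29, 1.88 to 2.71), Ier3 had 1.52, Csrnp1 1.09 and Jun 0.94 over N. Dusp1 had 1.61 and Phlda1 1.17. The feedback list had 2 of 15 higher and 2 lower over N, with a median of -0.03, and against the rest N itself had 7 of 15 higher (median 0.42). Of 13 integrated stress response genes, 8 were higher in N against the rest (median 0.85), and over N members had none higher and 5 lower. Of the chaperones, 2 of 24 were higher in members than in N, namely Hspa1b (1.19) and Hspb1 (1.22), and 1 was lower.

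Some genes differed from N by under 1.5-fold. Klf4 stood at 155 and 125 CPM, Klf6 at 162 and 141 CPM, Ier5 at 95.4 and 72.4 CPM and Dnajb1 at 101 and 86.0 CPM. Others were lower in members. Jund (-0.79) and Fosl1 (-1.08) were lower in members than in N, and so were Chac1 (-2.80) and Gas1 (-1.68). Myod1 was higher, at 172 against 78.7 CPM (1.13). Across all 7716 genes, 224 were at least 1.5-fold higher and 888 lower in members than in N.

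**Figure D4:**
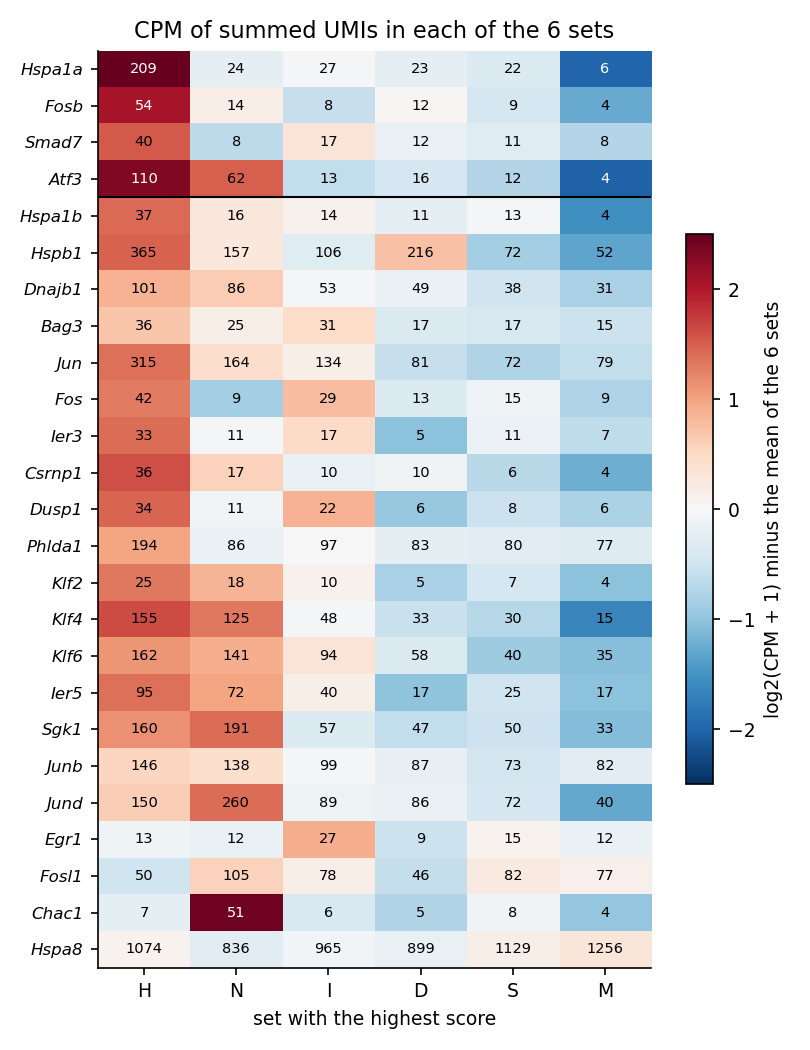
CPM of summed UMIs of 25 genes in each of the 6 sets, printed in the cells and coloured by log2(CPM + 1) minus the mean of the 6 sets, with the 4 genes of the rule above the line. Hspb1, Jun and Phlda1 are highest in H (365, 315 and 194 CPM), Klf4, Klf6 and Ier5 are nearly as high in N, and Hspa8 lies between 836 and 1256 CPM.

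Against the rest, the M, D and S sets had the lowest medians of the immediate-early factors, at -1.16, -0.76 and -0.65. Hspa1a stood at 6.30 CPM in M and 21.9 CPM in S, Jun at 79.1 and 71.9 CPM, and Klf4 at 14.97 and 29.8 CPM. Of the 23 immediate-early factors, 15 were 1.5-fold lower in M, 14 in D and 12 in S, each against the rest. Of all 7716 genes, 741 were 1.5-fold lower in M, 1012 in D and 654 in S. The I set was nearest to the members for Fos (28.8 CPM) and Dusp1 (22.4 CPM).

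The 4 genes were not limited to deep barcodes. In 1809 barcodes with 1000 to 19707 UMIs and no Ptprc UMI, which were not scored, Hspa1a stood at 264 CPM, Fosb at 108 CPM, Atf3 at 111 CPM and Smad7 at 27.7 CPM. In the members they stood at 209, 53.9, 110 and 40.4 CPM, so Hspa1a and Fosb were higher in the shallower barcodes and Smad7 lower. Of the genes named above outside the rule and the lists, Trib1, Pxdc1, Rgcc, Hsp25-ps1, Phlda1, Nav2 and 4632427E13Rik were also higher there than in members. Trib1 stood at 358 against 42.5 CPM and Pxdc1 at 281 against 32.5 CPM. Ttc21a, Gm38299, Zfp367, Fxyd4, Ppp1r10 and Map2k3os were lower there. Egr1 and Junb differed by under 1.5-fold between members and the other scored barcodes. They stood at 669 and 917 CPM in these shallower barcodes, against 12.5 and 146 CPM in the members. The tables do not say which of these barcodes came from uninjured muscle.

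The repeat measurement in the 10% table gave nearly the same members. By the same rule 11 of 78 scored barcodes were members there (14.1%, interval 7.26 to 23.8%), with 51940 to 105788 UMIs. Of the 76 barcodes scored in both tables, 66 fell in the same set. Of the 12 that were members in the 90% table, 10 were members in the 10% table and 2 fell in N, and 1 member of the 10% table fell in S in the 90% table. The H scores had a rank correlation of 0.92.

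**Figure D5:**
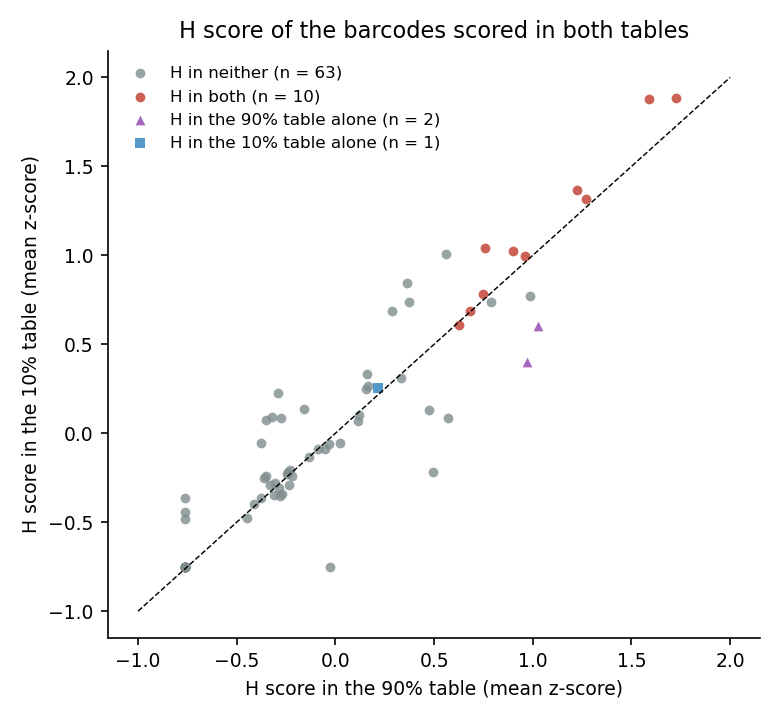
H score of the 76 barcodes scored in both tables, with the 90% table on the x axis and the 10% table on the y axis, and a dashed line of equal scores. The 10 barcodes that are members in both (red) lie at the upper end, and 3 barcodes are members in a single table.

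Most genes that were higher in the 90% table had the same direction in the 10% table. In the short reads of the 10% table the log2 ratio of members over others was 4.07 for Hspa1a, 2.51 for Hspa1b, 1.53 for Hspb1 (1.296 to 1.76), 1.43 for Jun (1.21 to 1.64), 2.38 for Ier3 and 1.87 for Phlda1. Of 86 genes called higher in the 90% table, 77 had at least 30 UMIs here. Of these 77, 64 had a log2 ratio over 0 and 42 were again at least 1.5-fold higher. Of the genes named above with at least 30 UMIs here, Pmaip1 (-0.62) and Mdm2 (-0.05) were under 0. Fxyd4, below that minimum with 1 UMI in members and 23 in others, had -2.18. Of the 11 members here, 10 are members in the 90% table too, so these directions are no independent support. Of 2575 genes tested there, 38 (1.48%) were called higher and 201 (7.81%) lower. Long reads, which read whole cDNA and so place a UMI on an isoform, gave 461 UMIs of Hspa1a in the 11 members and 167 in the 67 others, on 1 isoform. Hspa1a had a long-read UMI in 10 of 11 members (0 to 260 UMIs, median 16) and in 33 of 67 others. The long-read log2 ratio was 3.70 for Hspa1a, 1.56 (1.39 to 1.73) for Hspb1, 1.28 (1.14 to 1.42) for Jun, 1.79 for Phlda1, 1.22 for Atf3 and 0.78 for Fos.

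Isoform use was close in members and others for Atf3 and Jun. The leading isoform of Atf3 held 154 of 189 UMIs in members (81.5%, 75.2 to 86.8%) and 308 of 382 in others (80.6%, 76.3 to 84.5%). That of Jun held 50.2% (46.3 to 54.0%) and 46.5% (43.7 to 49.3%), with overlapping intervals. That of Hspb1 held 87.1% (83.7 to 90.1%) and 92.5% (90.4 to 94.3%), lower in members by slightly more than the counting error. These shares pool the UMIs of 11 members and 67 others, and the spread between barcodes was not tested. Fosb, with 55 and 79 UMIs over 6 isoforms, gave 52.7% (38.8 to 66.3%) and 38.0% (27.3 to 49.6%), a difference within the counting intervals.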

How the data were processed

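The data are 3′ single-cell RNA-seq of 1 capture, with short reads of a 10% and a 90% aliquot and long reads of the 10% aliquot. The authors deposited UMI counts per gene and per isoform without normalization, made with scPipe and FLAMES. Cell Ranger 1.3, minimap2 2.17 and the build GRCm38.p6 are named in the submitters' processing notes. The 90% aliquot holds 39044129 UMIs and the 10% aliquot 6772259 UMIs. Of 26997 gene IDs, 26939 matched a symbol, and positions are from Gencode vM21 (GRCm38).

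The rule of the opening was applied to the 90% table. The members, gene lists and tests were chosen with earlier results of these data known. Genes with at least 200 UMIs over the scored barcodes were compared by the ratio of CPM of summed UMIs. Intervals are exact (Poisson for levels, conditional binomial for ratios, Clopper-Pearson for shares) at 95% and cover counting error only. Barcodes from a single capture do not replicate a condition, so no p-value is given. Named are the genes of the rule, those of the lists and, outside both, the 15 highest and 10 lowest ratios with a UMI in at least 25% of barcodes of the higher group. Some genes that meet this rule are not reported here. The ratio function was tested on simulated counts. Python 3.11.15, scipy 1.17.1 and scanpy 1.11.5 (Scrublet) were used. Alternatives are in the closing section.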

Additional observations from a re-analysis of the deposited data

How the results depend on the processing

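The number of members stayed within 1.5 times of 108 (73 to 120) under every alternative tried for it, and none of 82 genes (the 4 H genes, and those of the lists and of the highest and lowest ratios that passed 1.5-fold) changed direction under the 5 alternatives given for them below. Counts of genes at least 1.5-fold higher or lower (86 and 839) depended on how genes were counted. They were 21 and 122 with a gene minimum of 1000 UMIs, 3425 and 3358 with no minimum, 27 and 186 at a fold of 2, and 153 and 530 with ratios centred on the median gene. With the S and M sets alone as the comparison, 230 genes were higher, and with Smad7 dropped from the rule, 136 were. The median log2 ratio of immediate-early factors (0.35) was 1.58 against S and M alone and 0.15 with Atf3 dropped from the rule. That of the chaperones (-0.03) lay between -0.08 and 0.10 under the alternatives tried for it, on both sides of 0. The share of members with a UMI of Hspa1a was 75.9% thinned and 88.9% with all UMIs. Of these 82 genes, 8 fell under 1.5-fold without barcodes of at least 50 CPM Rn7sk, 4 without the 76 barcodes of both tables, 2 without the top barcodes, 1 with mean CPM over barcodes and 6 after centring. Leaving out barcodes that were in both tables or high in Rn7sk, centring, and other minimums for the 10% table were chosen after seeing the data. No paired analysis was possible because the groups are barcodes of 1 capture without replicate numbers. At this depth 12 members had no UMI of Hspa1a and 21 none of Smad7, which does not show that the transcripts were absent.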
